A study of Mus musculus with 17 samples.

Results

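The hedgehog receptors and GLI factors are 7 of the 24013 genes counted in sorted mouse male germ cells: Ptch1, Smo, Hhip, Sufu, Gli1, Gli2 and Gli3. They were listed by name as the receptors, the cytoplasmic inhibitor and the transcription factors of the pathway, and the list was chosen because Ptch1 was far lower in the Kit-positive cells. That difference is therefore given as a description, without a test. All 7 genes were found by Entrez number, and 6 of them passed the filter on low counts, which left out Hhip.

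RNA was sequenced from 17 libraries of testis cells from Tert-Tomato/+ reporter mice on a B6/J X B6/N mixed background, in which a Tomato protein reports Tert, the catalytic subunit of telomerase. The adult groups were GFRa1+ TERT-High Kit- cells (4 libraries, GFRA1-positive below), GFRa1- TERT-High Kit- cells (4 libraries, GFRA1-negative) and TERT-High Kit+ cells (5 libraries, Kit-positive). GFRA1 is the receptor for the growth factor GDNF on spermatogonial stem cells, and Kit marks spermatogonia that have begun to differentiate. The remaining 4 libraries were TERT+ OCT4-GFP+ gonocytes of day 6 neonates, whose genotype label gives the Tert reporter alone. The labels name no animal behind a library, so p-values measure the spread between these libraries, which may be technical.

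As background, hedgehog ligands bind Ptch1, a membrane protein that otherwise holds the receptor-like protein Smo inactive. Active Smo signals at the primary cilium to free the GLI transcription factors from Sufu, which restrains them. Gli2 is known mainly as an activator, Gli3 mainly as a repressor, and Gli1 as an activator that is itself a target gene. Ptch1 and Hhip, a membrane protein that binds and sequesters the ligands, are known targets that limit the signal. In the testis the ligand Dhh is made by Sertoli cells and is known for its action on Leydig and peritubular cells.

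The 250 bases before the annotated start are shown for Ptch1 and Gli2, the 2 hedgehog genes with the largest fold differences between adult groups, with their CpG content. Capitals mark CpG, a C followed by a G on the same strand, where DNA methylation acts on the C. Each sequence is given 5′ to 3′ on the gene's strand, from RefSeq, build GRCm38.p6. The Ptch1 sequence lies on chromosome 13 (chr13:63565736-63565985, minus strand) and the Gli2 sequence on chromosome 1 (chr1:119053620-119053869, minus strand).
Ptch1: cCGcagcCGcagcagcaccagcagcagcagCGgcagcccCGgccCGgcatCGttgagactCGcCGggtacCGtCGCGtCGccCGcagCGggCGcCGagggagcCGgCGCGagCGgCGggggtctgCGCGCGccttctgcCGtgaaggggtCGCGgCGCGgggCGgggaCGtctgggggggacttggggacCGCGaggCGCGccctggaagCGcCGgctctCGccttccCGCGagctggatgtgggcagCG
Gli2: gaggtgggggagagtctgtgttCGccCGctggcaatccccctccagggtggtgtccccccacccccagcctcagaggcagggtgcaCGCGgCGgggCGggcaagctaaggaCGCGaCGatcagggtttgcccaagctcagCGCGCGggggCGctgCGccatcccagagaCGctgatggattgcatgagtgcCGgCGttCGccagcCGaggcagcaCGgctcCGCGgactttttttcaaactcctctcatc

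The Ptch1 sequence held 41 CpG at 78.4% G and C, and the Gli2 sequence held 22 at 67.2%. The medians over 32851 such windows of the same table were 6 CpG and 52.4%. The GLI binding motif GACCACCCA was then searched on both strands (as TGGGTGGTC on the other) in windows of 300 bases, which reach from 250 bases before the start to 50 after it. It lay in 83 of the 32851 windows (0.253%) and in 0 of the 6 windows of hedgehog genes in that table, which has no entry for Gli1. No match says only that these letters are not in these windows. In the same windows G and C made up 76.3% for Ptch1 and 67.3% for Gli2. The other windows held 73.7% (Hhip), 71% (Gli3), 67.7% (Smo) and 56.3% (Sufu). A high G and C content was thus not particular to the 2 genes shown.

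The libraries held 5178352 to 12641907 counts, with fewer in the Kit-positive (5178352 to 8300165) and gonocyte libraries (6479216 to 8468203) than in the GFRA1 groups (9965437 to 12641907). Levels are given in CPM, with library sizes corrected by TMM factors. Among the adult groups the sorted genes followed the labels. Gfra1 averaged 390 CPM in GFRA1-positive, 22.8 in GFRA1-negative and 4.71 in Kit-positive cells. Kit averaged 353 CPM in Kit-positive cells against 17.6 in GFRA1-positive and 27.6 in GFRA1-negative cells. Gonocytes held both, with Kit at 188 CPM and Gfra1 at 145 CPM on average. Pou5f1, which encodes OCT4, averaged 19.7 CPM in gonocytes against at most 4.28 elsewhere. Tert was detected at 7.21 to 11.3 CPM on average in every group. All 10 germ cell markers on a list were detected in each group, summing to 1677 to 3182 CPM per library. Markers of other cells were present as well. The 10 spermatid markers summed to 79.3 to 1939 CPM in the adult libraries, and the 4 highest libraries, at 1026 to 1939 CPM, were GFRA1-positive replicates 2 and 4, GFRA1-negative replicate 2 and Kit-positive replicate 1. Where a named call below is lost without those 4 libraries, the value without them is given beside it. In sorted bulk samples, fewer cells of a type and less RNA per cell cannot be told apart.

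Ptch1, the ligand-binding receptor, had its highest level in the GFRA1-negative cells. It read 348, 245, 310 and 347 CPM in the 4 GFRA1-negative libraries and 87.6, 63.0, 89.3 and 59.7 CPM in the 4 GFRA1-positive libraries. The gonocyte libraries read 64.8, 54.2, 77.3 and 62.7 CPM. In the 5 Kit-positive libraries, by contrast, Ptch1 read 2.24, 6.15, 4.93, 1.36 and 2.60 CPM, 130 counts in all. All 4 GFRA1-negative libraries were above every other library, all 5 Kit-positive libraries were below every other library, and the GFRA1-positive and gonocyte libraries overlapped between them.

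The order of the Ptch1 means was thus GFRA1-negative (312 ± 48.5 CPM, SD, n = 4), GFRA1-positive (74.9 ± 15.7, n = 4), gonocytes (64.8 ± 9.54, n = 4) and Kit-positive (3.46 ± 2.00, n = 5). Ptch1 was 4.17-fold lower in GFRA1-positive than in GFRA1-negative cells (log2 fold change -2.06 ± 0.25 SE, edgeR adjusted p = 1.4e-05). It was also lower in gonocytes than in GFRA1-negative cells (-2.27 ± 0.25, edgeR adjusted p = 2.7e-06). Gonocytes and GFRA1-positive cells did not differ by the same test (-0.21 ± 0.24, edgeR adjusted p = 0.51). Both called differences use the 4 GFRA1-negative libraries, which also entered the Kit-positive contrast that chose the genes, so they are not independent of that choice. The Kit-positive level lay 86.8-fold below the GFRA1-negative one (-6.44 ± 0.29) and 20.8-fold below the GFRA1-positive one (-4.38 ± 0.27).

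**Figure D1:**
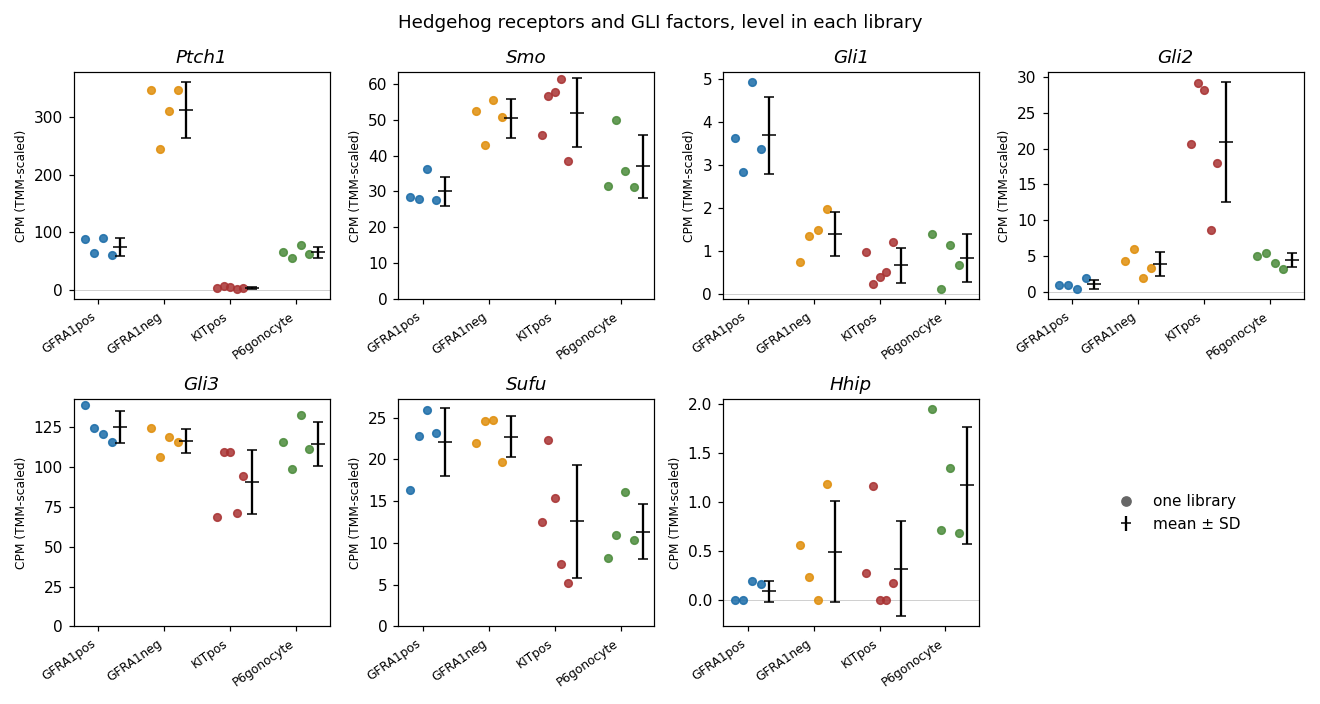
Each panel plots 1 gene, with the TMM-scaled level in CPM on a linear vertical axis, a point for each library of the 4 groups, and a bar for the mean ± SD beside them. Ptch1 is highest in all 4 GFRA1-negative libraries (245 to 348 CPM) and lowest in all 5 Kit-positive libraries (1.36 to 6.15 CPM), while Gli2 is highest in the Kit-positive libraries.

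Smo, the signal transducer that Ptch1 restrains, varied far less. It read 28.6, 27.8, 36.1 and 27.7 CPM in GFRA1-positive libraries and 52.5, 42.9, 55.6 and 50.6 CPM in GFRA1-negative libraries. The 2 groups did not overlap, and Smo was lower in GFRA1-positive cells (-0.75 ± 0.17, edgeR adjusted p = 0.0065). Without the 4 libraries high in spermatid markers the value was -0.67 and the edgeR adjusted p was 0.079. The Kit-positive libraries, at 45.8, 56.5, 57.8, 61.4 and 38.5 CPM, spanned the GFRA1-negative range.

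In gonocytes Smo read 31.5, 49.9, 35.6 and 31.3 CPM. Only the replicate at 49.9 CPM reached the GFRA1-negative range. The gonocyte level was lower than the GFRA1-negative one at the threshold (-0.44 ± 0.17, edgeR adjusted p = 0.047), a call lost when GFRA1-negative replicate 1, 3 or 4 or gonocyte replicate 1, 3 or 4 was left out (edgeR adjusted p from 0.0079 to 0.14 over the 8 fits that leave out 1 library). It was also lost without the 4 libraries high in spermatid markers (-0.44, edgeR adjusted p = 0.066) and with no count filter (-0.41, 0.072). It did not differ by the test from the GFRA1-positive level (0.30 ± 0.17, edgeR adjusted p = 0.17).

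Hhip, the decoy that binds hedgehog ligands, was scarce, and in GFRA1-positive cells it was close to the counting floor of 3 counts per group (0.0693 CPM there). It had 4 counts over the GFRA1-positive libraries, 21 over the GFRA1-negative, 13 over the Kit-positive and 38 over the gonocytes. Each gonocyte library held some, at 1.94, 0.721, 1.35 and 0.687 CPM. The GFRA1-positive libraries read 0, 0, 0.201 and 0.169 CPM, below all of these. The GFRA1-negative libraries, at 0.564, 0.240, 0 and 1.18 CPM, overlapped both. An exact two-sided permutation test over libraries gave p = 0.0286 for gonocytes against GFRA1-positive cells, the smallest 4 against 4 libraries can give, and 0.0857 after adjustment over the 3 comparisons. The other exact permutation p-values were 0.143 (adjusted 0.171) for gonocytes against GFRA1-negative cells and 0.171 (adjusted 0.171) for GFRA1-positive against GFRA1-negative cells.

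Sufu, which binds the GLI proteins and holds them out of the nucleus, did not differ by the test between the adult Kit-negative groups (-0.04 ± 0.32, edgeR adjusted p = 0.96). It read 16.3, 22.8, 26.0 and 23.2 CPM in GFRA1-positive libraries and 21.9, 24.6, 24.7 and 19.6 CPM in GFRA1-negative libraries, which interleave. Gonocytes were lower, at 8.19, 10.9, 16.0 and 10.3 CPM, all under the lowest library of either group. The differences were -0.95 ± 0.32 from GFRA1-positive cells (edgeR adjusted p = 0.026) and -0.99 ± 0.32 from GFRA1-negative cells (edgeR adjusted p = 0.019). The first call was lost without any of 5 single libraries (GFRA1-positive replicate 2 or 3, or gonocyte replicate 1, 2 or 4, highest edgeR adjusted p 0.084), and the second without gonocyte replicate 1 (0.064) or 4 (0.05). Without the 4 libraries high in spermatid markers the edgeR adjusted p-values were 0.13 and 0.066. The Kit-positive libraries spread more widely, at 12.5, 22.4, 15.4, 7.50 and 5.20 CPM.

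Among the transcription factors, Gli3, mainly a repressor, was the most abundant and the steadiest. Its mean was 125 ± 9.95 CPM in GFRA1-positive cells, 117 ± 7.72 in GFRA1-negative cells and 115 ± 14.0 in gonocytes (SD, n = 4 each). No comparison between these 3 groups was called, with edgeR adjusted p-values of 0.72 for the 2 GFRA1 groups, 0.52 for gonocytes against GFRA1-positive cells and 0.91 for gonocytes against GFRA1-negative cells. The 5 Kit-positive libraries read 68.6, 110, 110, 71.5 and 94.8 CPM (mean 90.8 ± 19.98), which lay partly below the others, 2 of them within the range of the other groups.

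Gli2, mainly an activator, was lowest in the GFRA1-positive cells. It read 0.976, 0.878, 0.403 and 1.86 CPM in GFRA1-positive libraries and 4.33, 6.00, 1.96 and 3.26 CPM in GFRA1-negative libraries. The groups did not overlap, although the lowest GFRA1-negative value (1.96) lay close to the highest GFRA1-positive one (1.86). Gli2 was lower in GFRA1-positive cells (-1.90 ± 0.45, edgeR adjusted p = 0.0067), a call that limma voom did not make (-1.97, adjusted p = 0.06). Gonocytes, at 5.00, 5.41, 4.04 and 3.16 CPM, were above all GFRA1-positive libraries (2.06 ± 0.45, edgeR adjusted p = 0.0015) and did not differ by the test from GFRA1-negative cells (0.17 ± 0.41, edgeR adjusted p = 0.77).

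The Kit-positive libraries held the most Gli2, at 20.6, 29.2, 28.1, 8.70 and 18.02 CPM (mean 20.9 ± 8.35, n = 5). Even the lowest of them, replicate 4, was above every library of the other groups. As a description, the fitted level lay 5.34-fold above the GFRA1-negative one (2.42 ± 0.40 on the log2 scale) and 19.9-fold above the GFRA1-positive one (4.31 ± 0.45).

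Gli1, the activator that is itself a target gene, was low everywhere. It read 3.64, 2.83, 4.93 and 3.38 CPM in GFRA1-positive libraries, above all others, and 0.753, 1.36, 1.502 and 1.97 CPM in GFRA1-negative libraries. Gonocytes read 1.39, 0.120, 1.14 and 0.687 CPM (27 counts), and Kit-positive libraries read 0.980, 0.232, 0.389, 0.512 and 1.21 CPM (22 counts). Although the 2 GFRA1 groups did not overlap, the difference was not called (1.40 ± 0.54, edgeR adjusted p = 0.097). It was called by limma voom (1.42, adjusted p = 0.027) and when only those 2 groups were fitted (1.40, edgeR adjusted p = 0.027). Gli1 was lower in gonocytes than in GFRA1-positive cells (-2.13 ± 0.57, edgeR adjusted p = 0.0066) and did not differ by the test from GFRA1-negative cells (-0.74 ± 0.58, edgeR adjusted p = 0.32).

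The Gli1 counts have a further limit. Its exons share 62 bases with those of Arhgap9 and 265 bases with those of Gm47200, both on the opposite strand. Whether the authors counted by strand is not given in the sources used here, so reads of Gli1 and of these genes in those stretches cannot be told apart. Gm47200 has no row in the table used here. Arhgap9 averaged 11.9 ± 2.01 CPM in GFRA1-positive cells, 0.767 ± 0.471 in GFRA1-negative cells, 0.415 ± 0.264 in Kit-positive cells and 3.22 ± 0.620 in gonocytes. It was thus highest in the same group as Gli1, while between GFRA1-negative cells and gonocytes the means of Gli1 and Arhgap9 ran in opposite directions.

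**Figure D2:**
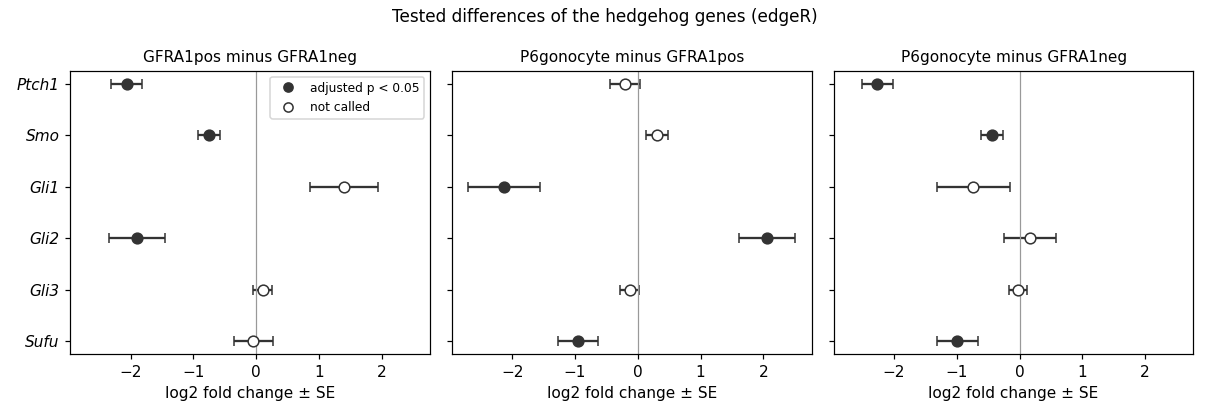
The panels plot the log2 fold change with its SE (horizontal axis) of the 6 tested hedgehog genes in the 3 comparisons tested, with filled points at an edgeR adjusted p under 0.05. Ptch1 lies at -2.06 and -2.27 in the comparisons with GFRA1-negative cells and at -0.21 between gonocytes and GFRA1-positive cells, where Gli2 lies at 2.06 and Gli1 at -2.13.

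Of the 6 tested genes, 3 were called between GFRA1-positive and GFRA1-negative cells (0 higher, 3 lower), against 14.1% of the 15451 genes tested (7.3% higher, 6.84% lower). Between gonocytes and GFRA1-positive cells 3 of 6 were called (1 higher, 2 lower), against 39.2% (17.3% higher, 21.9% lower). Between gonocytes and GFRA1-negative cells 3 of 6 were called (0 higher, 3 lower), against 43.6% (18.8% higher, 24.9% lower). The last 2 counts are close to those backgrounds. Both counts against GFRA1-negative cells include Ptch1, the gene on which the list was chosen. They also use libraries of that choice, so nothing is read from their distance to the background. The median log2 fold changes of the 6 genes were -0.39, -0.17 and -0.59 in the same order, and those of all genes tested were -0.04, -0.05 and -0.09. The comparisons share libraries with each other, so their counts are not independent.

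Markers of other cells moved with the groups. In gonocytes the 15 Sertoli markers found summed to 243 to 518 CPM (518 in replicate 2, and none at 0 in every library), above 192 to 221 in GFRA1-positive and 110 to 157 in GFRA1-negative cells. Of 12 tested, 8 were called higher against GFRA1-positive and 7 against GFRA1-negative cells. The 12 peritubular myoid and fibroblast markers (none at 0 in every library) summed to 49.3 to 66.3 CPM in gonocytes against 29.5 to 41.6 in the GFRA1 groups. All 10 spermatid markers were lower in gonocytes, which held 4.81 to 8.05 CPM of them with 1 marker at 0 throughout. The 10 spermatocyte markers (1 at 0 throughout in gonocytes) summed to 108 to 114 CPM in gonocytes against 201 to 2332 in the GFRA1 groups, with 9 and 10 called lower. In Kit-positive cells the 11 Leydig markers (none at 0 in every library) summed to 28.9 to 154 CPM, against 11.8 to 35.8 in the GFRA1 groups, and 8 of 10 tested were called higher in both comparisons. The 8 endothelial markers summed to 8.14 to 14.4 CPM there, against 29.6 to 43.5 in the GFRA1 groups, and of 6 tested 4 were called lower than in GFRA1-negative and 5 lower than in GFRA1-positive cells. Between the GFRA1 groups the Sertoli sums given above did not overlap, with 1 marker called higher and 2 lower in GFRA1-positive cells. The protease gene Ctsl had the highest mean of the Sertoli markers in each of these groups. It averaged 159 CPM in GFRA1-positive cells, 78.5 in GFRA1-negative cells and 175 in gonocytes. Wt1 (2.46 and 9.66 CPM) and Gata4 (2.69 and 8.97 CPM) were instead lower on average in GFRA1-positive than in GFRA1-negative cells. Between the GFRA1 groups the single Sertoli markers thus did not all follow the sums. In gonocytes Ctsl read at most 238 CPM, against the Sertoli sum of 518 CPM in replicate 2. Of the 12 tested Sertoli markers, 0 were called lower in gonocytes than in either GFRA1 group. How far the sums reflect Sertoli cell content was not tested. The sums of the 8 macrophage and leukocyte markers did not overlap between the GFRA1 groups either. They were 17.5 to 22.0 CPM in GFRA1-positive and 13.3 to 15.1 in GFRA1-negative cells, with 1 of 3 tested called higher. The part of these markers in the levels above was not tested.

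Compared per kilobase of exon, the make-up of the pathway differed between groups. In GFRA1-negative cells Ptch1 led at 40.0 CPM per kilobase, ahead of Gli3 at 14.0 and Smo at 13.3. In GFRA1-positive cells Gli3 led at 15.1, ahead of Ptch1 at 9.60 and Smo at 7.95, and gonocytes had the same 3 leading genes with Smo (9.82) ahead of Ptch1 (8.30). In Kit-positive cells Smo (13.8) and Gli3 (10.9) led, and Ptch1, at 0.443, was below Gli2 (3.15) and Sufu (1.88).

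As a share of the summed per-length level of the 3 GLI genes, Gli3 made up 93.4% ± 1.31 in GFRA1-positive cells, 93.7% ± 1.91 in GFRA1-negative cells and 94.0% ± 1.24 in gonocytes (SD, n = 4 each). In the 5 Kit-positive libraries it made up 77.2% ± 5.52, from 71.1% to 85.7%, below every other library. Gli2 made up 21.6% ± 5.59 there, from 13.1% to 26.8%, against 0.977% ± 0.626 in GFRA1-positive cells, 3.96% ± 1.88 in GFRA1-negative cells and 4.62% ± 1.41 in gonocytes. The share of Gli1 was highest in GFRA1-positive cells, at 5.67% ± 1.42.

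**Figure D3:**
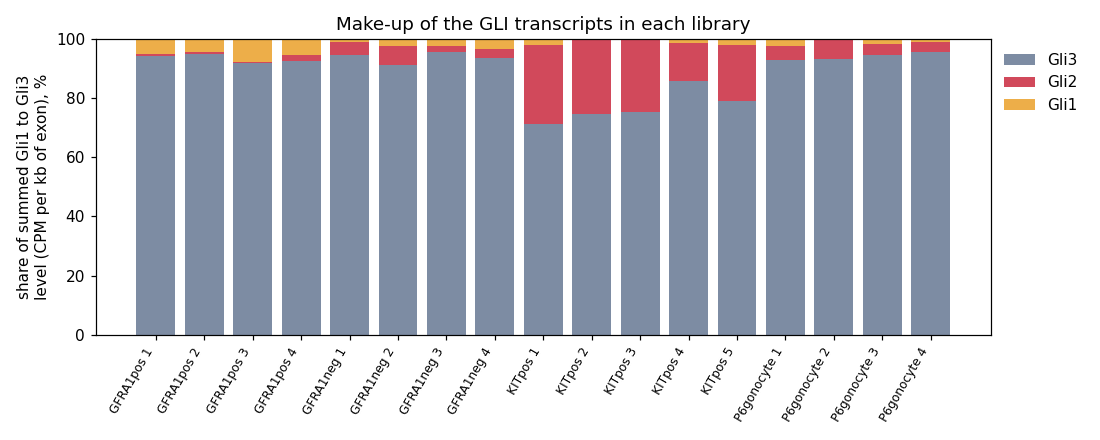
Stacked bars show, for each of the 17 libraries, the share (%) of Gli3, Gli2 and Gli1 in their summed level in CPM per kilobase of exon. Gli3 holds over 90% in the 12 libraries of the other groups and 71.1% to 85.7% in the 5 Kit-positive libraries, where Gli2 holds 13.1% to 26.8%.

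Of the 116 other pathway genes on fixed lists, 108 were tested. Between GFRA1-positive and GFRA1-negative cells 12 were higher and 12 lower (22.2% of the 108, against 14.1% of all genes). In gonocytes 18 were higher and 32 lower than in GFRA1-positive cells (46.3%, against 39.2%), and 14 were higher and 36 lower than in GFRA1-negative cells (46.3%, against 43.6%). In Kit-positive cells 17 were higher and 40 lower than in GFRA1-negative cells, where 45.1% of all genes were called (22.1% higher, 23% lower). Against GFRA1-positive cells 23 were higher and 38 lower, where 48.6% were called (24.9% higher, 23.7% lower). Since the genes were chosen on the Kit-positive level, nothing is read from the Kit-positive counts.

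The ligands were scarce. Shh had 6, 6, 32 and 11 counts and Ihh 5, 13, 8 and 2 in GFRA1-positive, GFRA1-negative, Kit-positive and gonocyte libraries. Dhh, the Sertoli ligand, read 4.44, 13.5, 4.35 and 3.44 CPM in gonocytes against 2.13, 1.85, 2.11 and 0.676 in GFRA1-positive libraries (1.92 ± 0.71, edgeR adjusted p = 0.038). Its highest library is the gonocyte replicate 2 that also had the highest Sertoli marker sum (518 CPM). Dhh is itself on that marker list, and its 13.5 CPM are part of that sum. Without this library the value was 1.27 with an edgeR adjusted p of 0.19. The call was also lost without GFRA1-positive replicate 2 (0.068), 3 (0.059) or 4 (0.11), and without the 4 libraries high in spermatid markers (1.61, edgeR adjusted p = 0.17). Of the 9 ligand and release genes, 6 were tested. Scube2, a secreted factor that helps release the ligand, averaged 24.4 CPM in Kit-positive cells, 7.02 in gonocytes, 4.28 in GFRA1-negative and 1.99 in GFRA1-positive cells, and gonocytes exceeded GFRA1-positive cells (1.81 ± 0.45, edgeR adjusted p = 0.0038). Disp1, which exports the ligand, was lower in gonocytes than in GFRA1-positive cells (-0.81 ± 0.13, edgeR adjusted p = 2e-04).

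The 8 co-receptors and ligand-binding proteins split between the GFRA1 groups, 4 higher and 2 lower in GFRA1-positive cells, against 7.3% and 6.84% of all genes. The lower count was 1 without any of 4 single libraries (GFRA1-positive replicate 1, 2 or 3, or GFRA1-negative replicate 1) and without the 4 libraries high in spermatid markers. Gpc3, a glypican that binds the ligand, was higher in GFRA1-positive cells (2.27 ± 0.35, edgeR adjusted p = 0.00018), and so was the co-receptor Gas1 (3.21 ± 0.62, edgeR adjusted p = 0.0016, with 12 counts in the GFRA1-negative libraries). Lrp2, a large endocytic receptor, was lower (-1.75 ± 0.33, edgeR adjusted p = 0.0012). In Kit-positive cells the co-receptors Cdon, at 25.8 CPM, and Boc, at 0.601 CPM, were below their GFRA1-negative means of 70.8 and 2.49 CPM.

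Among the 17 tested textbook target genes, 5 were higher and 4 lower in GFRA1-positive than in GFRA1-negative cells. Over all genes, 7.3% were higher and 6.84% lower in this comparison. Ccnd1 (1.24 ± 0.12, edgeR adjusted p = 9.8e-07) and Ccnd2 (2.24 ± 0.17, edgeR adjusted p = 1e-07), the D-type cyclins of G1, were higher. Foxc2, a forkhead factor, was higher too (3.71 ± 0.40, edgeR adjusted p = 4.5e-06), while the G1 kinase Cdk6 was lower (-2.20 ± 0.13, edgeR adjusted p = 5.3e-09). Other signals are known to act on these cyclins as well, so the list is not specific to hedgehog.

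Foxf1, a forkhead target of the pathway in mesoderm, had the same order of means as Ptch1. It averaged 168 CPM in GFRA1-negative, 91.8 in GFRA1-positive, 41.7 in gonocyte and 5.08 in Kit-positive libraries. Gonocytes were lower than GFRA1-negative cells (-2.01 ± 0.20, edgeR adjusted p = 1.1e-06) and than GFRA1-positive cells (-1.14 ± 0.20, edgeR adjusted p = 0.00028), where Ptch1 did not differ by the test.

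Of the 31 cytoplasmic transducers, 1 was higher and 2 were lower in GFRA1-positive than in GFRA1-negative cells, where 7.3% of all genes were higher and 6.84% lower. Grk2, a kinase of Smo (0.64 ± 0.17, edgeR adjusted p = 0.017), was the higher one, and Efcab7 (-1.13 ± 0.35, edgeR adjusted p = 0.038) was among the lower ones. The Grk2 call was lost without GFRA1-positive replicate 3 or GFRA1-negative replicate 1 or 4 (highest edgeR adjusted p 0.063) and without the 4 libraries high in spermatid markers (0.074). The Efcab7 call was lost without any of 6 single libraries (GFRA1-positive replicate 1, 2 or 3, or GFRA1-negative replicate 2, 3 or 4, highest edgeR adjusted p 0.12), with no count filter (0.066) and when only those groups were fitted (0.076). In gonocytes Cul1 (1.12 ± 0.15, edgeR adjusted p = 2.6e-05) and Cul3 (1.11 ± 0.15, edgeR adjusted p = 3.5e-05), scaffolds of ubiquitin ligases, were higher than in GFRA1-positive cells, among 7 higher and 5 lower. Over all genes, 17.3% were higher and 21.9% lower in that comparison.

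Of the 41 genes of the primary cilium and its transport, 20 were lower and 1 was higher in gonocytes than in GFRA1-negative cells, where 24.9% of all genes were lower and 18.8% higher. Against GFRA1-positive cells 14 were lower and 4 higher, where 21.9% of all genes were lower and 17.3% higher. Without the 4 libraries high in spermatid markers 13 and 6 were lower, and without GFRA1-positive replicate 4, gonocyte replicate 3 or gonocyte replicate 4 the second count was 9. With single libraries left out, the number higher in the first comparison ranged from 0 (GFRA1-negative replicate 2) to 3 (gonocyte replicate 2). The median log2 fold changes were -0.52 and -0.38, against -0.09 and -0.05 over all genes. Against GFRA1-negative cells, Wdr19, a subunit of the retrograde transport complex, was lower (-1.79 ± 0.27, edgeR adjusted p = 5.2e-05), as were Bbs1 of the BBSome (-1.93 ± 0.30, edgeR adjusted p = 8.1e-05) and Ift172 of the anterograde complex (-1.18 ± 0.20, edgeR adjusted p = 0.00013). Spermatid markers, which sum to 79.3 CPM or more in every adult library, fell in the same comparisons. Their part was not tested. Spermatids are known to use many of these genes to build the flagellum.

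Of the 8 GLI-related zinc finger genes, 6 were tested, and 5 were lower in gonocytes than in GFRA1-positive cells, against 21.9% of all genes. Zic1, a relative of the GLI factors, read 20.02 CPM in GFRA1-positive, 0.897 in GFRA1-negative and 1.85 in gonocyte libraries on average, higher in GFRA1-positive than in GFRA1-negative cells (4.45 ± 0.55, edgeR adjusted p = 2e-05). Zic4 went the same way (2.65 ± 0.53, edgeR adjusted p = 0.0019), and Zic2 went the other way (-2.30 ± 0.60, edgeR adjusted p = 0.014, 0.051 without GFRA1-negative replicate 4 and 0.054 without the 4 libraries high in spermatid markers). Glis3, at 248 and 205 CPM in the 2 GFRA1 groups and 141 CPM in gonocytes, averaged 12.6 CPM in Kit-positive cells.

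**Figure D4:**
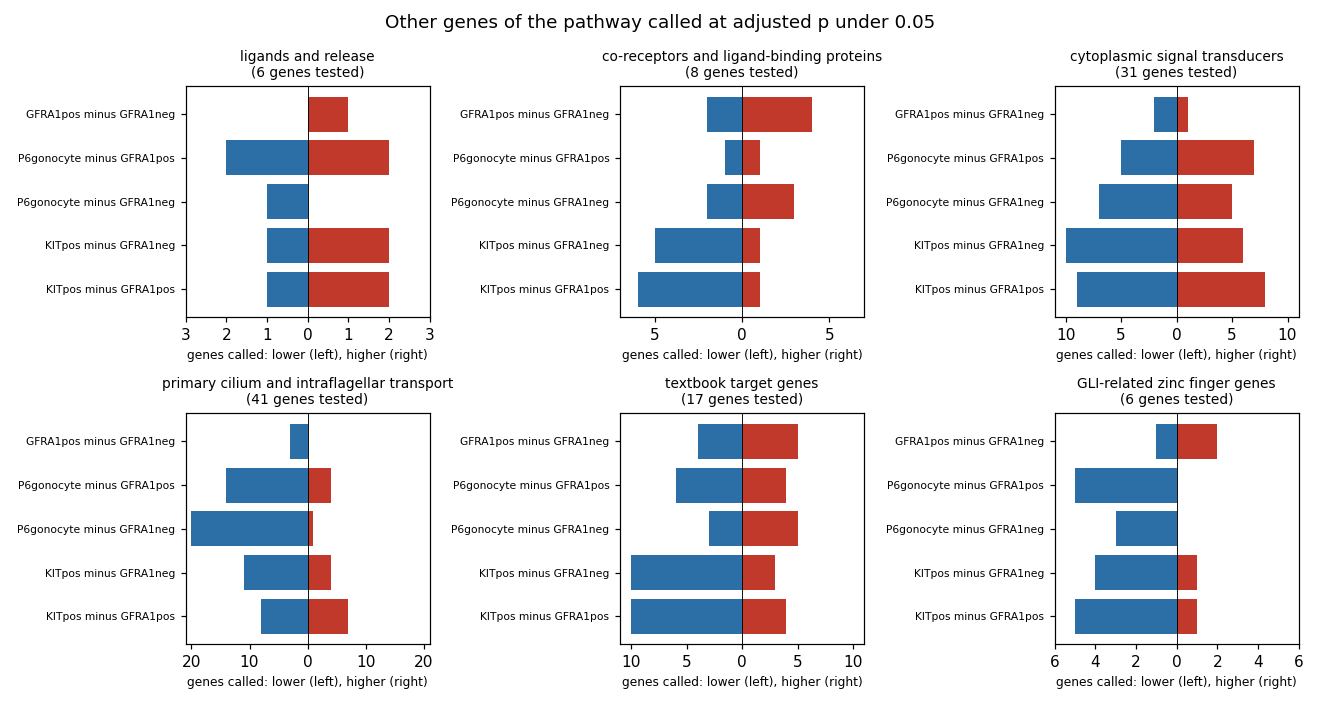
Each panel shows a list of pathway genes, with bars for the number of genes called higher (right) or lower (left) at an edgeR adjusted p under 0.05 in each of the 5 comparisons. For the 41 cilium genes, 20 are lower and 1 higher in gonocytes than in GFRA1-negative cells.

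The genes whose levels followed each hedgehog gene most closely over the 17 libraries were sought among 8187 tested genes with at least 20 CPM in a group. Pearson's r of log2(CPM + 1) is a description here, since the libraries fall into 4 groups. For Ptch1 the 5 highest were Tbc1d2b (r = 0.992), Cd276 (0.991), Lhfpl2 (0.989), Dkk3 (0.989) and D10Wsu102e (0.989). Lhfpl2 averaged 160 CPM in GFRA1-negative, 59.0 in GFRA1-positive, 34.0 in gonocyte and 3.31 in Kit-positive libraries, the same order as Ptch1.

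For Gli2 the closest were Vezf1 (0.926), Scube2 (0.910) and Agfg1 (0.909), with Scube2 also on the ligand release list above. The closest genes were 9430015G10Rik (0.898), Cntfr (0.895) and Kctd13 (0.893) for Smo, 5830417I10Rik (0.903), Huwe1 (0.891) and Crebbp (0.886) for Gli3, and Atxn2l (0.916), Wbp2 (0.916) and Dmwd (0.911) for Sufu. The values for Smo, Gli3 and Sufu are lower than for Ptch1, and these genes also vary less between the groups.

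**Figure D5:**
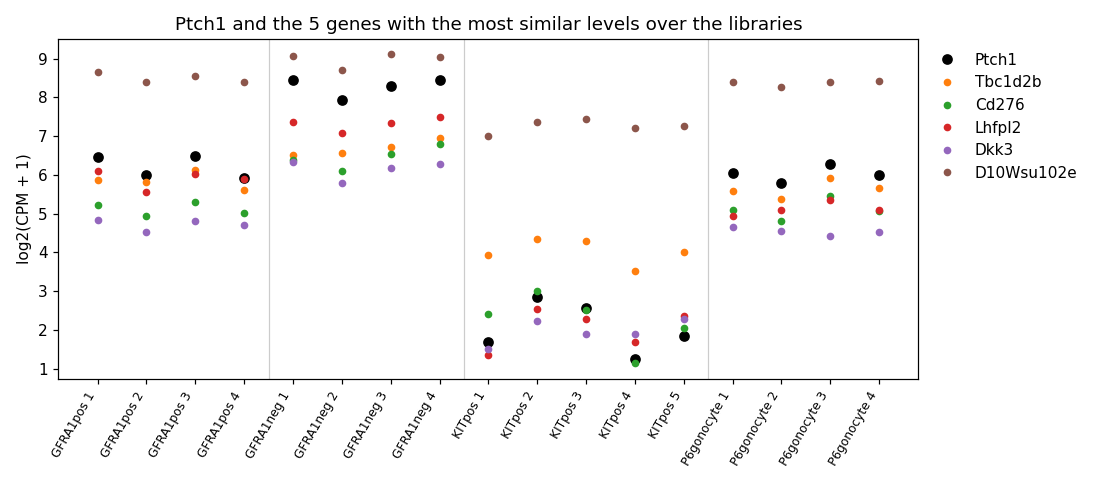
Points show log2(CPM + 1) of Ptch1 (black) and of the 5 genes with the highest Pearson r to it (colours) in each of the 17 libraries, with vertical lines between the groups. Ptch1 and these genes have their lowest points in the Kit-positive libraries and their highest in the GFRA1-negative libraries.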

How the data were processed

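Testes were dissociated enzymatically and the cells were sorted, and RNA was amplified before sequencing, per the labels' protocols. The authors deposited 1 table of raw whole-number counts per gene (Entrez numbers, 24013 rows) for the 17 libraries. Per the submitters' processing notes, the tools were TopHat2 2.0.4, Bowtie, Bowtie2 2.0.0-6, Trim Galore, DESeq and DESeq2, and the genome build mm9, each named with no role. How reads were assigned to genes, and whether strand was used, is not given in the sources used here. One GFRA1-positive column is spelled GFP for GFR and was taken as the sole column left for that title. Symbols were matched for 23930 rows by number, with RefSeq names of GRCm38.p6. Replicate libraries differed by more than counting error (chi-square per degree of freedom 4.13 to 51.0 over 28 pairs).

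Differences were tested with edgeR 4.0.16 (R 4.3.3) in 1 quasi-likelihood fit to the 4 groups together (17 libraries), with TMM factors, the filterByExpr filter and Benjamini-Hochberg adjustment over 15451 genes, at an adjusted p of 0.05. CPM used TMM-scaled library sizes. Exon lengths came from GENCODE gene models on GRCm38. Alternatives were upper-quartile or RLE factors, no filter on counts, at least 1 CPM in 4 libraries, DESeq2 1.42.0, limma 3.58.1 voom, fits of the compared groups alone, the replicate number as a block, and leaving out each library. A fit without the 4 libraries highest in spermatid transcripts was chosen after seeing the data. The script was tested on simulated data. Named genes were the 7 hedgehog genes, up to 4 genes with the smallest adjusted p per list and comparison, genes of lists of 9 or fewer, the genes closest to each hedgehog gene, and the sorted genes. Arhgap9 and some cell type markers are named as limits. The genes and lists were chosen with earlier results of these data known. Some genes of these lists are counted but not reported here by name.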

Additional observations from a re-analysis of the deposited data

Results flagged for a closer look

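In 2 of the 28 combinations of gene and group, 1 library lay far from the others of its group by Dixon's criterion, which chance meets in about 1 of 20. Smo in GFRA1-positive replicate 3 was at 36.1 CPM, with the nearest of the other 3 libraries at 28.6 CPM (gap of 0.897 of the range). It was still below all 4 GFRA1-negative libraries. Hhip in Kit-positive replicate 2 was at 1.16 CPM, with the nearest of the other 4 libraries at 0.280 CPM (gap of 0.759 of the range).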

How the results depend on the processing

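Depth limits Hhip and Gli1 most, with 4 to 38 counts and 22 counts or more per group. The other limits are that the comparisons share libraries and that several calls rest on 1 library. The differences of Ptch1 between GFRA1-positive and GFRA1-negative cells (-2.16 to -1.88) and between gonocytes and GFRA1-negative cells (-2.37 to -2.19) stayed called under all alternatives, as did Gli1 (-2.46 to -1.77) and Gli2 (1.81 to 2.65) between gonocytes and GFRA1-positive cells. In all, of 306 alternative values of the hedgehog genes in the 3 tested comparisons 276 kept direction and side of the threshold, and of 1218 counts of calls by list or direction 1116 stayed within 1.5 times. Without the 4 libraries high in spermatid transcripts, genes called over the whole table fell to 1268 from 2185 between the GFRA1 groups and to 3971 from 6060 between gonocytes and GFRA1-positive cells, a fit with fewer libraries, and hedgehog genes called between gonocytes and GFRA1-negative cells went from 3 to 1. Leaving out single libraries gave 1 to 3 hedgehog genes in that last comparison. Values near 0 changed sign: Sufu between the GFRA1 groups was 0.012 with no count filter and, with 1 library left out, -0.128 to 0.0798. Gli3 between gonocytes and GFRA1-negative cells was 0.0121 with no count filter, 0.0189 when only those groups were fitted, 0.0099 without the spermatid-high libraries, and -0.0994 to 0.0441 with 1 library left out. Gli2 in the same comparison ran from -0.0444 to 0.459 with 1 library left out. Smo between Kit-positive and GFRA1-negative cells ran from -0.0266 to 0.136. The cause was not tested. With the replicate number as a block, genes called went to 2584 between the GFRA1 groups, 6409 between gonocytes and GFRA1-positive cells and 7071 between gonocytes and GFRA1-negative cells, and hedgehog genes called stayed at 3 in each. The block ended the call of Efcab7 between the GFRA1 groups (-1.14, edgeR adjusted p = 0.054). Gli1 moved to -1.50 from -1.09 for Kit-positive minus GFRA1-negative cells and to -2.84 for Kit-positive minus GFRA1-positive cells (-2.92 without the spermatid-high libraries). The main fit did not pair libraries of the same number, because the labels do not say whether a number pairs them. The deviations of same-numbered libraries correlated at 0.0329 to 0.517 between the GFRA1 groups, 3 of 4 closest to their own number. In the other comparisons they correlated at -0.458 to 0.110. Whether some libraries of the 2 GFRA1 groups were paired is therefore not known. The scaling alternatives moved the median of all genes by less than 0.1 on the log2 scale.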
